A study of Caenorhabditis elegans with 2 samples.

Results

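The genes described here are the named splicing factor genes of Caenorhabditis elegans. They were chosen by name: every gene in the deposited count table whose WormBase symbol starts with rsp, snr, snrp, sfta, sftb, uaf, prp, lsm, hrp, hrpa, hrpf or mog, followed by a hyphen and a number. The rule found 55 of the 46748 gene identifiers in the table, and all 55 are annotated as protein-coding. No gene with the prefix sfta or hrp was found, so the members fall into 9 classes by prefix.

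Whole wild-type hermaphrodites, 5 days old and fed heat-inactivated OP50, the Escherichia coli strain used as standard worm food, were profiled in 2 libraries. The labels leave the wild-type strain unspecified, although the sample titles carry N2. Both libraries had the same genotype, food and age, so there was 1 group and no contrast between conditions. Replicates 1 and 2 are names given in accession order. The labels do not state separate cultures, and any spread between the libraries may therefore be technical. The libraries were made with an mRNA preparation kit. The series title places the samples in work on OP50 diet and lifespan.

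Pre-mRNA splicing removes introns in the nucleus and is carried out by the spliceosome, which is built from small nuclear RNAs and many proteins. Sm proteins form a ring on most spliceosomal small nuclear RNAs, and LSm proteins form the related ring on U6 and a cytoplasmic ring that acts in mRNA decay. SR and hnRNP proteins bind the pre-mRNA and help to choose splice sites, U2AF and SF3 recognise the end of the intron and its branch point, and Prp proteins build, remodel and drive the machine. Many of these roles were worked out in yeast and human cells. In C. elegans, several helicase genes of the same machine were first found as mog genes, whose loss masculinises the germline. Splicing factors have also been studied in worm ageing, where the branch point binding factor gene sfa-1 is needed for the long life of diet-restricted animals.

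Replicate 1 held 28164638 counts and replicate 2 held 31271070. Levels are given as counts per 1000000 of the library's own total (CPM) per kilobase of annotated exon, called CPM per kb, so that genes of different length can be compared. Coordinates are those of the WBcel235 genome build. Detection was set at 10 or more counts in each library, which 12268 protein-coding genes reached. Markers of the tissues of a whole adult were found at very different levels. All 8 germline markers lay between 103 and 683 CPM per kb and all 6 intestinal markers were detected, from elt-2 at 4.12 to vit-6 at 6231. The 5 body wall muscle markers ran from 3.39 to 95.7, the 5 hypodermal markers from 0.995 to 290.0 and the 6 neuronal markers from 0.273 to 192 CPM per kb. Of 6 sperm markers 4 were detected, and spe-38 had only 1 and 2 counts. In whole animals, fewer cells of a type and less RNA per cell cannot be told apart.

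Every splicing factor gene of the rule was expressed, and none was near the limit of detection. All 55 were detected, with between 541 and 31864 counts in a library. Their median level was 80.9 CPM per kb in replicate 1 and 81.6 in replicate 2 (mean 81.2 ± 0.490, SD, n = 2), beside 11.5 for all detected protein-coding genes. The lowest member, mog-7, stood above 63.0% of the detected protein-coding genes and the highest, hrpa-1, above 97.6%. Of the 55, 45 lay above the 75th percentile of those genes (45.0 CPM per kb) and 26 above the 90th (97.6 CPM per kb). Together they took 0.857% of the counts in replicate 1 (95% Wilson interval 0.854% to 0.861%) and 0.862% in replicate 2 (0.859% to 0.865%); these intervals, like the others below, cover counting error only.

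**Figure D1:**
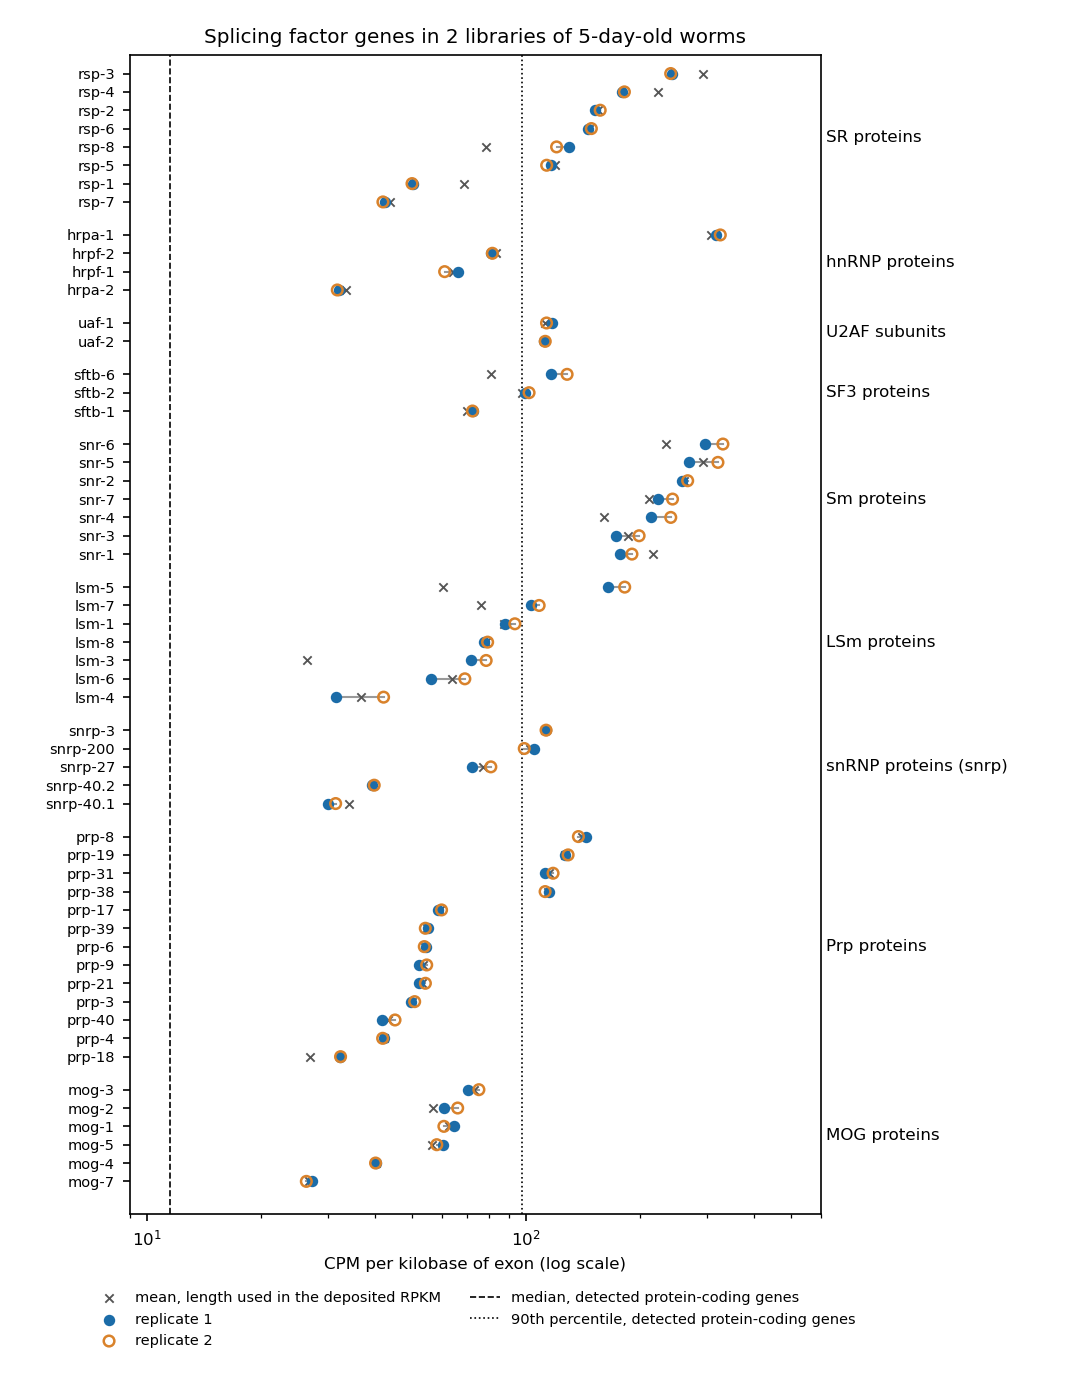
Level of each of the 55 splicing factor genes in CPM per kilobase of exon (log scale), by name class; filled points are replicate 1, open points replicate 2, and crosses the mean with the gene length used in the deposited RPKM. All members lie to the right of the dashed median of detected protein-coding genes (11.5), the 7 Sm genes all lie right of the dotted 90th percentile (97.6), and the crosses of lsm-5 and lsm-3 lie far left of their points.

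The choice of gene length mattered for some members and is given here before the single values. The length that the authors had used can be read back from the deposited counts and RPKM (reads per kilobase per 1000000 reads), and it came out within 0.1 bases of a whole number for all 55 members. It was within 5% of the annotated exon length for 39 of them, beside 60.7% of detected protein-coding genes. It was over 1.5 times the annotated length for 4, namely lsm-5 (792 against 276 bases), lsm-3 (1229 against 432), rsp-8 (1895 against 1189) and sftb-6 (746 against 492). Of detected protein-coding genes, 1.56% were over 1.5 times. The annotated lsm-5 has no intron and a coding sequence of 91 codons that fills its exon apart from the stop codon. With the authors' length the mean level became 60.5 CPM per kb for lsm-5 in place of 174, 26.4 for lsm-3 in place of 75.1, 78.5 for rsp-8 in place of 125, and 80.7 for sftb-6 in place of 122. The authors' length was over 1.1 times the annotated length for 10 members, these 4 among them, and under 0.9 times for 5. Other members thus moved too, such as rsp-1 from rank 45 to 32 and snr-6 from rank 2 to 5. The Spearman rho between both sets of levels was 0.935 over the 55 genes, a description of values that share their counts.

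The SR protein genes, whose products carry RNA-binding domains and stretches rich in arginine and serine, were all well expressed, with a median of 138 CPM per kb in replicate 1 and 135 in replicate 2 over 8 genes. The highest was rsp-3 (WBGene00004700, chromosome III, 12686182 to 12687922), the worm counterpart of the human factor SRSF1, at 243 and 241 CPM per kb in replicates 1 and 2. Next came rsp-4, the counterpart of SC35, at 179 and 182 CPM per kb. Both values of rsp-3 exceeded both values of rsp-4. The gene rsp-2 followed at 152 and 157 CPM per kb. The gene rsp-6, a relative of the short human SR protein SRSF3, was at 146 and 149 CPM per kb. The values of rsp-2 and rsp-6 did not overlap, although the gap between them was small. With the authors' lengths their order was kept, at means of 155 and 147 CPM per kb. With the longest annotated transcript as length rsp-6 was the higher, at 186 against 155. The gene rsp-8, related to the splicing regulator Tra2, was at 129.7 and 120.5 CPM per kb, and rsp-5 was at 117 and 113. The 2 lowest were rsp-1, at 50.5 and 50.1 CPM per kb, and rsp-7, at 42.4 and 41.9 CPM per kb. With annotated lengths rsp-1 and rsp-7 lay apart from the other 6, which were all above the 90th percentile of detected protein-coding genes. With the authors' lengths rsp-1 reached 68.4 CPM per kb and rsp-8 fell to 78.5, while rsp-5 was at 119.6. The split of 2 genes from 6 was then not kept.

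Among the hnRNP genes 1 stood far above the rest. The gene hrpa-1 (WBGene00001999, chromosome IV, 3336920 to 3338867), which encodes the worm hnRNP A1 homologue, had 14694 and 16749 counts, or 317 and 326 CPM per kb, the highest mean of all 55 members. Its relative hrpa-2 on the X chromosome was at 32.1 and 31.8 CPM per kb. The mean of hrpa-1 was therefore 10.1 times that of hrpa-2, and the libraries agreed closely within each gene. The genes of the hnRNP F and H type lay between them, hrpf-2 at 80.9 and 81.6 CPM per kb and hrpf-1 at 66.3 and 61.0 CPM per kb. In mean level hrpa-1 was followed by snr-6, whose libraries spanned its own, so hrpa-1 and snr-6 are not ordered beyond their spread. With the authors' lengths the next after hrpa-1 was snr-5, at a mean of 293 CPM per kb against 309 for hrpa-1.

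The genes of intron-end and branch point recognition differed in level, with the U2AF genes, sftb-2 and sftb-6 above the member median and sftb-1, prp-9 and prp-21 below it. The U2AF large subunit gene uaf-1, whose product binds the polypyrimidine tract, was at 117 and 113 CPM per kb. The small subunit gene uaf-2, whose product reads the AG at the intron end, was at 111.6 and 112.5. The mean of uaf-1 was 1.03 times that of uaf-2, and both values of uaf-1 lay above both values of uaf-2. With the authors' lengths uaf-1 was at 114.2 and 110.8 CPM per kb and uaf-2 at 111.5 and 112.4, so their values overlapped. Of the SF3b genes, sftb-1, which encodes the large scaffold homologous to human SF3B1, was at 72.4 and 72.3 CPM per kb. The gene sftb-2 was at 99.6 and 102. The gene sftb-6, which encodes the small subunit that touches the branch point, was at 116 and 128 CPM per kb, and at a mean of 80.7 with the authors' length. The SF3a subunit genes prp-9 and prp-21 were at 53.5 ± 1.69 and 53.3 ± 1.45 CPM per kb (SD, n = 2), and their values overlapped.

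Sm genes had the highest median of the 9 classes. Their 7 products form the ring around the Sm site of the small nuclear RNAs. In replicate 1 their median was 223 CPM per kb and in replicate 2 it was 244, and all 7 were among the 10 highest members in each library. With annotated lengths the highest was snr-6 (WBGene00004919, chromosome III, 12429172 to 12429629), at 297 and 331 CPM per kb. It was followed by snr-5, at 269 and 321, and by snr-2, at 258 and 267 CPM per kb. The replicate 1 value of snr-6 lay below the replicate 2 value of snr-5, while both values of snr-2 lay just below those of snr-5. The gene snr-7 was at 223 and 244 CPM per kb, snr-4 at 214 and 241, snr-3 at 173 and 199, and snr-1 at 177 and 190.5. The pairs snr-7 with snr-4 and snr-3 with snr-1 overlapped between libraries, although snr-7 was above snr-4 within each library. The highest mean was 1.71 times the lowest, and that ratio was 1.72 in replicate 1 and 1.74 in replicate 2. Both ends of this order rest on the gene length. With the authors' length of 551 bases in place of 411, snr-6 fell to a mean of 234 CPM per kb, below snr-5 at 293. The lowest Sm gene was then snr-4 at 160, in place of snr-1, which was at 217. In the annotation, snr-6 shares 5.84% of its exon bases with pie-1 on the other strand, and snr-1 shares 12.05% with the scarcely counted gene Y116A8C.43 on its own strand (2 and 3 counts).

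The LSm genes were lower and less even than the Sm genes. Over 7 genes their median was 77.7 CPM per kb in replicate 1 and 79.2 in replicate 2. The gene lsm-1, whose product is specific to the cytoplasmic ring of mRNA decay, was at 87.8 and 93.5 CPM per kb. The gene lsm-8, whose product is specific to the nuclear ring on U6, was at 77.7 and 79.2 CPM per kb. Both values of lsm-1 lay above both values of lsm-8. The shared subunit genes ran from lsm-5, at 165 and 182 CPM per kb, through lsm-7 (103 and 108), lsm-3 (71.6 and 78.5) and lsm-6 (56.2 and 69.0) down to lsm-4, at 31.5 and 42.1. The position of lsm-5 at the top rests on its annotated length. With the authors' lengths lsm-1 was highest at 87.4 CPM per kb, lsm-3 lowest at 26.4, and the class median was 63.7. The gene for the remaining subunit, LSm2, carries the symbol gut-2 and is outside the rule; looked up after the other values were seen, it had 76.3 and 89.8 CPM per kb.

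On the other strand ada-2 covers 40.6% of the exon bases of lsm-4, the largest such share among the members, and ada-2 had 2730 and 3004 counts against 541 and 802 for lsm-4. No source used here says whether the counting used strand, and reads from the shared stretch then cannot be told apart. The part of this overlap in the level of lsm-4 was not tested.

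**Figure D2:**
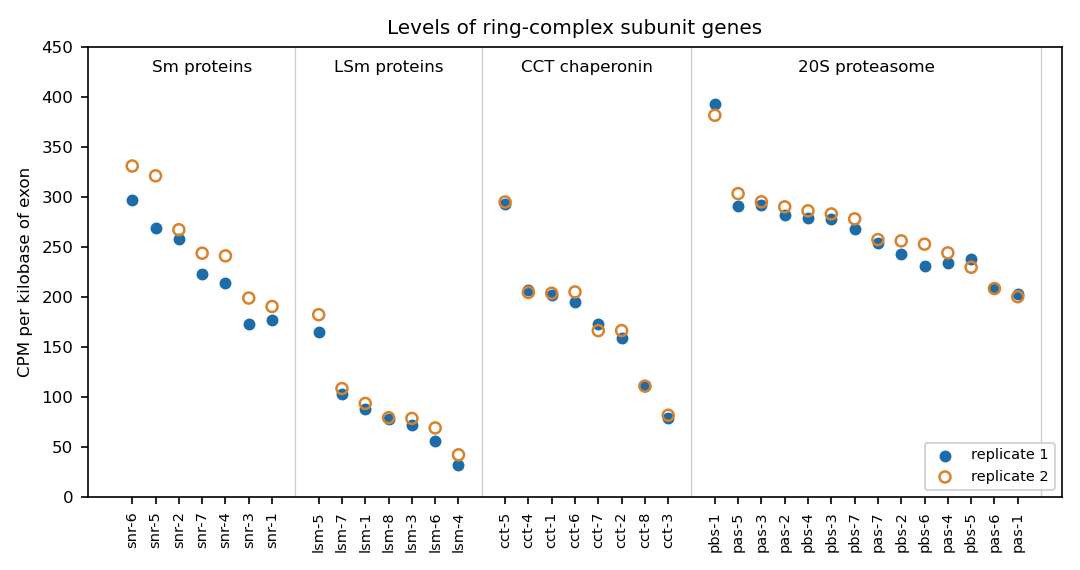
Level of each subunit gene in CPM per kilobase of exon (linear scale from 0) for Sm, LSm, CCT chaperonin and 20S proteasome genes, ordered by mean within each complex; filled points are replicate 1 and open points replicate 2. Sm and 20S genes lie within 1.71-fold and 1.92-fold ranges of mean level, while LSm and CCT genes spread over 4.71-fold and 3.67-fold ranges of mean level.

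The Sm and LSm spreads can be set beside those of other ring-shaped complexes. Genes of the 20S proteasome spread over 1.92-fold (14 genes, median 264 CPM per kb, from pas-1 at 202 to pbs-1 at 387). Genes of the CCT chaperonin spread over 3.67-fold (8 genes, median 185 CPM per kb, from cct-3 at 80.1 to cct-5 at 294). With the authors' lengths the spread was 1.83-fold for the Sm genes, 2.12-fold for the 20S genes and 3.31-fold for the LSm genes, so the order of these 3 spreads stayed as above. No CCT spread with those lengths is given here, so whether LSm genes still spread more than CCT genes is not known. The number of genes differs between complexes and no test was made of these ranges.

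The 5 snrp genes are named for the small nuclear ribonucleoproteins, the particles of the spliceosome. The gene snrp-200, which encodes the helicase that unwinds U4 from U6 (Brr2 in yeast), had 20207 and 21106 counts, the second highest CPM of all members. Per kilobase it was at 105.2 and 99.0, over 6817 exon bases. The gene snrp-3 was at 112.7 and 113.0 CPM per kb. The gene snrp-27, which encodes a tri-snRNP protein that acts in 5′ splice site choice in the worm, was at 71.9 and 80.8. The paralogues snrp-40.1 and snrp-40.2, both annotated with 331 codons and named for the WD-repeat protein of the U5 particle, were the lowest. The copy on chromosome X, snrp-40.1, was at 30.1 and 31.5 CPM per kb and the copy on chromosome I, snrp-40.2, at 39.2 and 39.8. Both values of snrp-40.2 lay above both values of snrp-40.1. How reads shared by such relatives were counted is not known, and their values are uncertain to that extent.

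The Prp genes fell into a high set of 4 and a lower set of 9. The gene prp-8 (WBGene00004187, chromosome III, 8164373 to 8172710), whose product holds the catalytic centre of the spliceosome, had 30045 and 31864 counts, more than any other member. Its level was 144 and 138 CPM per kb over 7407 exon bases. The gene prp-19, which encodes the ubiquitin ligase of the complex that activates the spliceosome, was at 127 and 129 CPM per kb. It was followed by prp-31, a tri-snRNP protein gene, at 113 and 118, and by prp-38, needed for spliceosome activation, at 115 and 112 CPM per kb. After these came a gap. The next, the second-step factor gene prp-17, was at 58.7 and 59.9 CPM per kb, and the U1-associated factor gene prp-39 at 55.2 and 54.3. The tri-snRNP genes prp-6 (54.2 ± 0.411 CPM per kb), prp-3 (50.3 ± 0.790) and prp-4 (42.1 ± 0.329) lay below their partner prp-31 (115 ± 3.77; SD, n = 2 for each). The U1-associated factor gene prp-40 was at 41.6 and 45.1 CPM per kb, and the second-step factor gene prp-18 was lowest at 32.4 in both libraries. No value of the high set overlapped one of the lower set.

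The MOG genes were the class with no member above the 90th percentile of detected protein-coding genes. Their median over 6 genes was 60.7 CPM per kb in replicate 1 and 59.5 in replicate 2. The helicase genes mog-1 (Prp16 in yeast), mog-5 (Prp22) and mog-4 (Prp2), which remodel the spliceosome at different steps, were at 64.7 and 60.8, at 60.3 and 58.2, and at 40.3 and 40.1 CPM per kb. Thus mog-4 lay below both other helicase genes in each library, and mog-1 lay above mog-5 without overlap. The gene mog-2, which encodes a protein of the U2 particle, was at 61.0 and 66.1 CPM per kb. The gene mog-3 was at 70.2 and 75.2 and the gene mog-7 at 27.3 and 26.3 CPM per kb. Both of these, like the others, are named for the masculinised germline of their mutants.

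In the order of mean level over all 55 members, 33 of the 54 neighbouring pairs overlapped between libraries and 21 did not. Most neighbours in the order thus had overlapping ranges. Such an overlap sets values of different libraries against each other. A pair may therefore overlap and still keep its order within each library, as snr-6 and snr-5 did. In CPM, which counts reads without division by length, the order differed. The 3 highest members by mean CPM were prp-8 (1043 CPM), snrp-200 (696) and hrpa-1 (529), and the Prp genes took 0.253% of all counts in replicate 1 and 0.251% in replicate 2. The 7 Sm genes took 0.0878% (Wilson interval 0.0867% to 0.0889%) and 0.0969% (0.0958% to 0.0980%), although they stood highest per kilobase.

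Splicing genes outside the name rule were split by their kind. Of 31 other genes of the spliceosome and its partners, all were detected, at a median of 58.1 CPM per kb in replicate 1 and 63.3 in replicate 2. The highest were snu-13, which encodes a protein of both U4 and box C/D particles (599.8 and 667.8 CPM per kb), and the exon junction genes mag-1 (205 and 211) and rnp-4 (169 and 175). The lowest were smu-1 (38.1 and 36.7) and usp-39 (31.6 and 33.2). The branch point binding gene sfa-1 was at 41.7 and 40.5 CPM per kb, below uaf-1 and uaf-2, the partners of its product at the intron end, and was picked out after its values were seen. None of the 31 was at or below the median of detected protein-coding genes, as was the case for the 55 members.

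Regulators of alternative splicing, many of them known from neurons and muscle, reached far lower. Of 23 listed genes 22 were matched by symbol and all of these were detected, at a median of 19.8 CPM per kb in replicate 1 and 20.3 in replicate 2. Only 14 of the 22 lay above the median of detected protein-coding genes. The highest were hrpr-1 (169 and 171 CPM per kb), hrpk-1 (143 and 146) and tiar-1 (121.5 and 125.7), and the lowest were sym-2 (1.41 and 1.63) and unc-75, a neuronal regulator (0.535 and 0.466). The lowest member of the name rule, mog-7, thus lay above 12 of these regulators by mean level. Neuronal markers other than snb-1 were also low, with 5 of 6 at or below 2.73 CPM per kb, and their part in the low regulators was not tested. The 5 genes of snRNP assembly and SR protein phosphorylation had a median of 61.0 CPM per kb in replicate 1 and 60.4 in replicate 2, from smi-1 (32.4 and 38.8) to icln-1 (92.3 and 91.7), with the SR protein kinase gene spk-1 at 81.4 and 79.0. The 3 genes of spliced-leader trans-splicing, the joining of a short leader to the start of many worm mRNAs, were sna-2 (74.2 and 77.5 CPM per kb), sna-1 (56.6 and 55.1) and sut-1 (33.5 and 37.0).

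**Figure D3:**
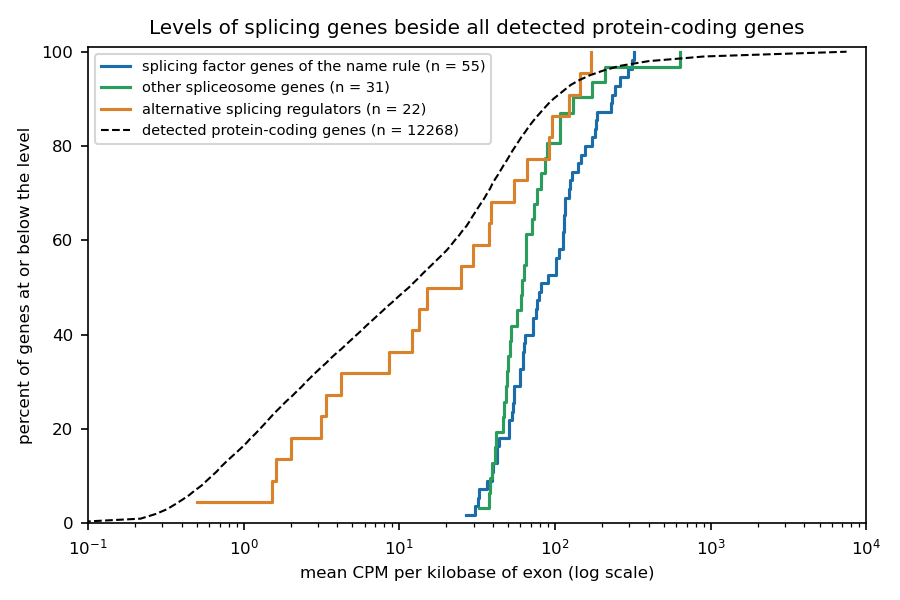
Cumulative share of genes (percent) against mean level in CPM per kilobase of exon (log scale) for the 55 splicing factor genes, 31 other spliceosome genes, 22 alternative splicing regulators and 12268 detected protein-coding genes. The curves of the members and of the other spliceosome genes start at 26.8 and 32.4 CPM per kb, right of the median of all genes (11.5), while the regulators start at 0.501.

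Each gene's counts in replicates 1 and 2 were set against each other by an exact binomial test (2-sided), with library sizes scaled by TMM, the trimmed mean of log ratios. Its p-values allow for counting noise alone and concern these libraries, not a condition. With Benjamini-Hochberg adjustment over 14397 genes, 16 of the 55 members had an adjusted p under 0.05, 29.1% of them, beside 11.6% of all genes tested. The members are deeply counted, and among the 6002 genes with 500 or more counts in each library, which include all 55 members, 21.4% were called. By direction, 11 members were lower in replicate 1 (6.62% of all genes tested) and 5 were higher (4.95%). The differences were small: 1 member, lsm-4, was more than 25% higher in one library than in the other, 1.82% of the members beside 23.2% of all genes tested, and 75 of the 6002 deeply counted genes. Its ratio of replicate 1 to replicate 2 was 0.753 (95% exact interval from counting 0.674 to 0.841, adjusted p = 1.06e-05 by the exact binomial test).

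Sm and LSm genes were lower in replicate 1 in 14 of 14 cases, 8 of them called. The Sm ratios ran from 0.842 for snr-5 (interval 0.801 to 0.886, exact binomial adjusted p = 1.65e-09) to 0.970 for snr-2, which was not called. The LSm ratios ran from lsm-4 and lsm-6 (0.819, interval 0.733 to 0.914, exact binomial adjusted p = 0.00496) to 0.986 for lsm-8. The members called higher in replicate 1 were snrp-200 (ratio 1.07), prp-8 (1.05), mog-1 (1.07), rsp-8 (1.08) and hrpf-1 (1.09). The other members called lower were prp-40 (0.927), snrp-27 (0.894) and sftb-6 (0.910).

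The ratio of the libraries moved with gene length over protein-coding genes in general. Protein-coding genes with under 1000 exon bases and at least 500 counts in both libraries had a median ratio of 0.943 and 80.5% of 1290 lay below 1. Those with 1000 or more bases had a median of 1.004 and 46.5% of 4654 lay below 1. Of the 18 members under 1000 bases, 17 lay below 1, with a median of 0.913. Of the 37 longer members 17 did, with a median of 1.01. In narrower bins, genes under 500 bases had a median of 0.887 (90.3% below 1) and the 8 members there 0.910. From 500 to 750 bases the gene median was 0.939 (81.0% below 1) and that of the 8 members there 0.919. From 750 to 1000 bases the medians were 0.960 for genes and 0.931 for 2 members. Of those 18 short members 10 were called, beside 35.97% of the 1290 short genes with at least 500 counts. Of the 37 longer members 6 were called, beside 17.4% of the 4654 longer genes with at least 500 counts. The Spearman rho of ratio and exon length was 0.704 over the 55 members and 0.472 over the 5944 genes, a description across genes of the same 2 libraries. The part of length in the Sm and LSm ratios was not tested.

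**Figure D4:**
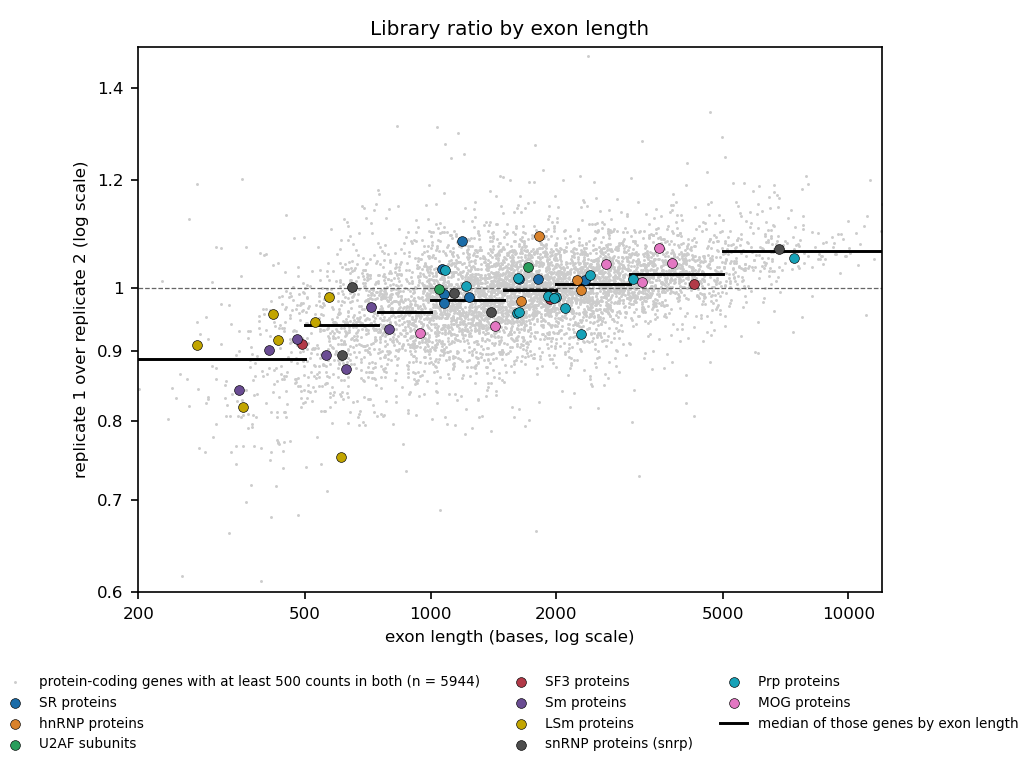
Ratio of replicate 1 to replicate 2 after TMM scaling (log scale) against exon length in bases (log scale) for the 55 members, coloured by class, and for 5944 protein-coding genes with at least 500 counts in both libraries (grey; 29 genes lie outside the axes); black bars are the medians of the grey genes by length. The bars climb from 0.887 under 500 bases to 1.06 at 5000 bases and over, the short Sm and LSm genes lie below 1, and lsm-4 is the lowest member at 0.753.

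Gene structure was set beside that of other genes. The members had a median of 3 introns in the longest transcript and 1396 exon bases, beside 5 introns and 1447 bases for detected protein-coding genes and 4 introns for the 4543 protein-coding genes at or above the level of mog-7. All but lsm-5 have at least 1 intron. The annotation gives several coding forms for 16 of the 55 (29.1%), beside 30.2% of detected protein-coding genes. Within the members the level per kilobase went with shorter exons (Spearman rho -0.450, n = 55 genes), which was not so over all detected protein-coding genes (-0.0482). The short Sm genes are at the high end of the relation within the members. Exon length is also the divisor of the level, so both variables share it. The relation was not computed for the 4543 genes at or above the level of mog-7.

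Chromosome II held 15 members (27.3%, beside 17.1% of detected protein-coding genes), chromosome III 12, chromosomes I and IV 10 each, chromosome V 6 and chromosome X 2. The X share of 3.64% compares with 14.5% of detected protein-coding genes, and with 5.06% of the 4543 genes expressed at or above the lowest member. The 2 members on X, hrpa-2 and snrp-40.1, were ranked 53 and 54 of 55 by mean level with annotated lengths. With the authors' lengths they were ranked 52 and 51. Of the 31 other spliceosome genes 0 were on X.

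A protein-coding neighbour read from the opposite strand lay within 1000 bases upstream of 29 members (52.7%), beside 17.9% of detected protein-coding genes, 28.4% of the genes at or above the lowest member and 12 of the 31 other spliceosome genes. A neighbour on the same strand within 500 bases on either side, the arrangement found in worm operons, was present for 29 members as well (52.7%), beside 36.9% of detected protein-coding genes, 50.4% of the genes at or above the lowest member and 22 of the 31 other spliceosome genes. Operons themselves were not read from these data.

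Members were head to head with each other in 2 cases, both on chromosome II. The genes snr-3 (6488830 to 6489761) and rsp-5 (6490165 to 6491340) start 403 bases apart, and snr-3 was the higher by 1.48-fold in replicate 1 and 1.75-fold in replicate 2. The SR protein genes rsp-2 (11451441 to 11452955) and rsp-1 (11453362 to 11455864) start 406 bases apart, and rsp-2 was higher by 3.02-fold and 3.14-fold in replicates 1 and 2. With the authors' lengths this difference was smaller. The gene rsp-2 was then at 152.7 and 157.5 CPM per kb and rsp-1 at 68.7 and 68.1. In neither case did the values of the partners overlap. Members also lay head to head with splicing genes outside the name rule, picked out here after their values were seen. The gene rsp-7 starts 579 bases from snu-13, the highest of the other spliceosome genes, and was at 42.4 and 41.9 CPM per kb against 599.8 and 667.8 for snu-13. The gene mog-7 starts 271 bases from the spliceosomal gene mfap-1 and was at 27.3 and 26.3 CPM per kb against 61.1 and 62.4 for mfap-1. The gene sftb-6 starts 376 bases from luc-7L3, a gene of the Luc7 family of U1-associated factors, and was at 116 and 128 CPM per kb against 34.8 and 36.5 for luc-7L3. With the authors' length sftb-6 was at 76.7 and 84.7 CPM per kb, and no such value is given here for luc-7L3. With annotated lengths the member was thus the lower partner beside snu-13 and mfap-1 and the higher beside luc-7L3.

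**Figure D5:**
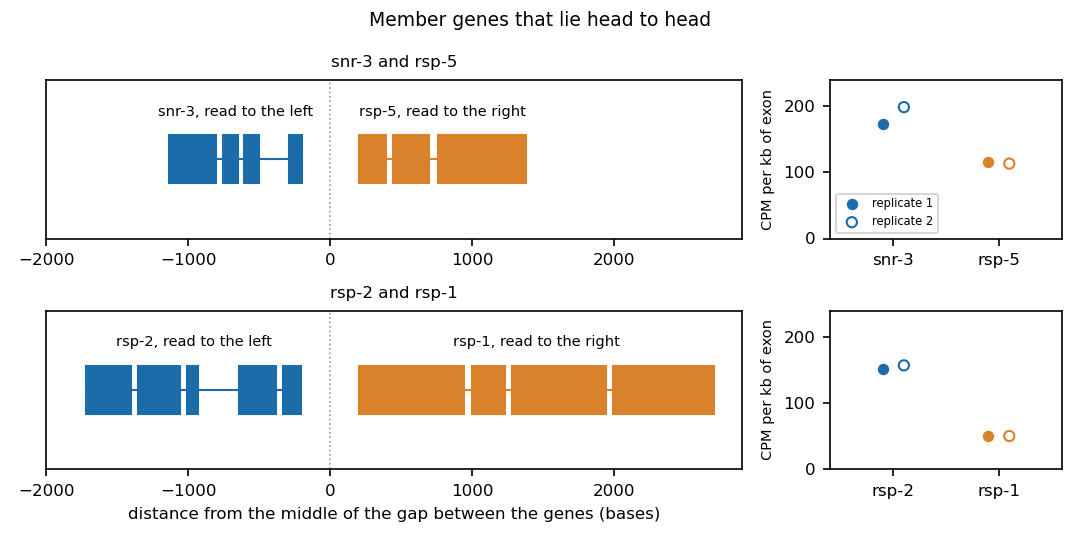
Exon models (boxes) of the head-to-head pairs snr-3 with rsp-5 and rsp-2 with rsp-1, by distance in bases from the middle of the gap between the genes, and the level of each gene in CPM per kilobase of exon (filled, replicate 1; open, replicate 2). In each pair the gene read to the left has the higher level, 173 and 199 against 117 and 113 for snr-3 and rsp-5, and 152 and 157 against 50.5 and 50.1 for rsp-2 and rsp-1.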

How the data were processed

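Deposited raw counts for each gene and the deposited RPKM were used. Per the submitters' processing notes, STAR 2.4.1d, featureCounts 1.4.6-p4 and genome build WBcel235 were used; no source used here gives counting options, strand or annotation release. The authors' deposited RPKM had been scaled with a read total that changed with the row, repeating every 8 rows and matching the column total within 1% in 12.5% of them, so levels were computed from the counts. RPKM served only to read back gene lengths, after the total of each row class had been estimated with annotated exon lengths.

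Symbols, coordinates and union exon lengths came from Ensembl release 115 of WBcel235, which held 46449 of the 46748 identifiers; the rest took 0.173% and 0.169% of the counts in replicates 1 and 2. One count was worth 0.0355 and 0.0320 CPM. Medians were taken over every member; their SD is that of the medians of both libraries. A fit of dispersion within 1 group without contrast was not used. Instead, an exact binomial test (scipy 1.17.1) used TMM library sizes (edgeR 4.0.16) on genes whose summed counts reached 10, with DESeq2 1.42.0 size factors as an alternative. It was tested on data simulated with counting noise alone, which cannot show how it behaves where libraries differ by more than that. A chi-square over the tested genes gave 8.82 per degree of freedom, so the libraries are not 1 library deposited again. It cannot tell separate cultures from separate preparations of the same RNA. Over the members it gave 7.38. The libraries thus differed by more than counting noise, which is all that the exact binomial p-values and intervals allow for. Every member is named. Genes named from other lists are the 3 highest and 2 lowest, plus genes next to a member. Beyond these, sfa-1 and gut-2 were named after values were seen. The members and lists were chosen with earlier results of these data known. Sequences were not used here.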

Additional observations from a re-analysis of the deposited data

How the results depend on the processing

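All 55 members stayed detected with at least 1 count or 1 CPM in both libraries. TMM sizes moved no median beyond its spread. The longest transcript as length moved 1 class median beyond its spread, that of SR genes, to 139.9 CPM per kb, and left 6 Sm genes among the 10 highest in place of 7. With the length implied by the deposited RPKM, medians became 76.8 CPM per kb for all members, 133 for SR, 112 for U2AF, 80.7 for SF3, 217 for Sm, 63.7 for LSm and 56.6 for MOG genes, and the highest over lowest level became 1.83 for Sm and 3.31 for LSm genes; 25 of 55 single members moved beyond their spread. Leaving out 1 library gave medians of 80.9 to 81.6 for all members, 54.3 to 54.5 for Prp and 59.5 to 60.7 for MOG genes, and a highest over lowest of 1.72 to 1.74 for Sm genes. Over protein-coding counts only, the share of the members was 0.882%. At a ratio of 1.5 no member passed the library comparison (0 in place of 1; 1590 of the 14397 genes tested did). Members called numbered 16 with column totals (11.4% of all genes tested), 15 with DESeq2 size factors (11.5%), 15 with no filter (7.53% of 19855) and 17 with the test restricted, after seeing the data, to genes with 500 or more counts in each library (24.9% of 6002). No paired analysis was possible because there is 1 group only. With 2 libraries, the SD of each value rests on 1 difference.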
